A study of Mus musculus with 2 samples.

Results

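Intracellular triglyceride and ester hydrolysis was read from 8 genes, Pnpla2, Abhd5, G0s2, Lipe, Mgll, Pnpla3, Lipa and Pnpla8, taken by gene symbol from the 24421 genes listed. All 8 were among the 11137 measured genes, which had 20 or more counts in all and averaged 1 CPM or more (CPM are counts scaled to a common library size). The libraries came from liver of male C57BL/6 mice that started a high-fat diet at 6 weeks of age and stayed on it for 12 weeks. Both genotypes carried floxed Rora alleles. The control had no other allele named (RORα f/f), and the other genotype also carried Alb-Cre (RORα f/f:Alb-Cre). In Alb-Cre the albumin promoter drives Cre in hepatocytes, and liver cells without Cre keep the gene. The title asks which genes RORα alters as steatohepatitis progresses. There was 1 library per genotype, so no ratio below has a replicate check or a p-value, and the sources used here do not give whether a library held 1 animal or a pool.

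Neutral lipids in hepatocytes are broken down along a cytosolic and a lysosomal route. At the droplet surface, adipose triglyceride lipase takes the first fatty acid from a triglyceride, hormone-sensitive lipase acts mainly on diglycerides and cholesteryl esters, and monoglyceride lipase releases the last fatty acid and glycerol. In the lysosome, acid lipase hydrolyses triglycerides and cholesteryl esters delivered by endocytosis or lipophagy. The first step is set by a coactivator, ABHD5, and by an inhibitor, G0S2.

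Total counts were 128201591 in the control against 131843686 in the LKO-labelled library. Rora had 3701 and 3677 counts, or 33.4 and 24.1 CPM, 1.38-fold (interval 1.32 to 1.45) lower in the LKO-labelled library. With total-count scaling its log2 ratio of −0.47 becomes −0.05. This total over the whole gene was not lost. It also counts any exons outside a deleted part, and their share was not tested, since counts are per gene. The label, and with it every direction below, was therefore not settled by Rora, and the other genotype is called the LKO-labelled library. Ratios use TMM scaling (trimmed mean of M-values), which sets the bulk of genes to equal levels. Scaling to the total count would raise every log2 ratio by 0.42. The intervals given are exact, at 95%, and reflect counting error alone. The 6 hepatocyte markers were abundant, with sums of 160338 and 118282 CPM in the control and the LKO-labelled library, and 2 of the 6 were at least 1.5-fold lower, or 0 with total-count scaling.

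A ratio of at least 1.5 in favour of the LKO-labelled library was found for 5 of the 8 genes, each with an interval that left out a ratio of 1. These were Pnpla3, Lipe, Pnpla2, G0s2 and Mgll, and 0 of the 8 were at least 1.5-fold lower. Among all measured genes, 10.5% were higher and 9.76% lower by the same rule. At 2-fold, 2 of the 8 genes were higher, Pnpla3 and Lipe, and 0 lower, beside 3.83% and 2.62% of all measured genes. Pnpla3 passed the filter only through the LKO-labelled library, and without it 1 of 7 was 2-fold higher. The median log2 ratio was 0.84 over the 8 genes and −0.0032 over all measured genes. With total-count scaling, Lipa joined the higher genes, and the background became 34.6% higher and 2.53% lower.

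**Figure D1:**
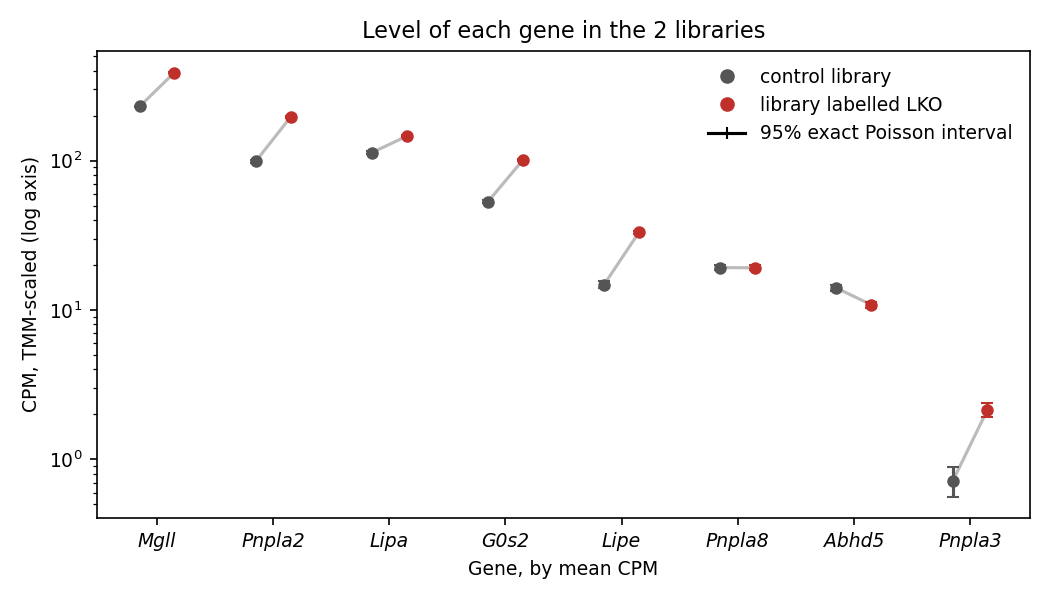
CPM (log axis, TMM-scaled) of the 8 genes in the control library (grey) and the LKO-labelled library (red), with 95% exact Poisson intervals that cover counting error only. Grey lines join the values of a gene: Mgll, Pnpla2, Lipa, G0s2, Lipe and Pnpla3 sit higher in the LKO-labelled library, Pnpla8 is level and Abhd5 sits lower.

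Stretches of the promoters of 4 of these genes are shown because each holds a recognition sequence that was searched. The windows are RefSeq's, on GRCm38.p6. There were 10 of them for the 8 genes, and the 250 bases before each start site were searched on both strands. The core of a ROR response element, TAGGTCA, was in 0 of the 10 windows and in 2.23% of 32851 windows of all genes. The nuclear receptor core AGGTCA, whose letters lie within that core, was in the window of Abhd5 only among the 8 genes and in 14.0% of all windows. The E-box CACGTG, a sequence that reads the same on both strands, was in 1 window each of Lipe and Mgll and in 6.02% of all windows. The full cAMP response element TGACGTCA was in the window of Pnpla3 and in 1.55% of all windows. The last 2 motifs were picked after the windows were read, and a match of letters is not a measured binding site. Capitals mark the match, and each stretch reads 5′ to 3′ on the strand of its gene.
Lipe (chr7:25396092-25396187, minus strand): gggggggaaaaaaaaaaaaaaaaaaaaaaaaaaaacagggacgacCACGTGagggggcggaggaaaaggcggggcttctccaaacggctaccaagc
Mgll (chr6:88724323-88724411, plus strand): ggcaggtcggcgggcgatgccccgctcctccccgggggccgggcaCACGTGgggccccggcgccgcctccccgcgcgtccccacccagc
Pnpla3 (chr15:84167725-84167815, plus strand): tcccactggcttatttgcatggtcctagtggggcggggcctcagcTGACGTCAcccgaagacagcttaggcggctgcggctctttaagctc
Abhd5 (chr9:122351502-122351597, plus strand): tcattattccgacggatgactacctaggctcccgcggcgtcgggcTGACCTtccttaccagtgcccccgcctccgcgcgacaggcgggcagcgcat
Mgll and Lipe each have more than 1 start site among these windows. The E-box of Mgll begins 44 bases before 1 of its start sites, and that of Lipe 155 bases before 1 of its own. The response element of Pnpla3 begins 46 bases before its start site, and the receptor core of Abhd5, read on the other strand, 69 bases before.

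Pnpla2 encodes adipose triglyceride lipase (ATGL), which starts triglyceride breakdown at the droplet. It lies on chromosome 7 from 141455198 to 141460743 (mm10, plus strand) and, like the other 7, is annotated as protein coding. Its counts were 10951 in the control against 29793 in the LKO-labelled library, or 98.8 and 195 CPM. The level in the LKO-labelled library was thus close to double, with Poisson intervals of the 2 levels far apart. The ratio was 1.98 (interval 1.93 to 2.02), above the ratios of 96.0% of measured genes, and its interval spans 2-fold.

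G0s2 encodes a small protein that binds ATGL and inhibits it. The gene lies on chromosome 1 (minus strand, 193272161 to 193273217). It had 5888 and 15353 counts, or 53.1 CPM in the control against 100.7 CPM in the LKO-labelled library. The inhibitor was therefore higher together with its lipase, by nearly the same factor. The ratio was 1.90 (interval 1.84 to 1.95). Lamb3, on the other strand, overlaps the span of G0s2 but shares 0 exon bases with it, and had 300 and 1184 counts.

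Abhd5 encodes CGI-58, the coactivator that ATGL needs for full activity and that perilipins hold back at the droplet. It lies on chromosome 9 (plus strand, 122351608 to 122381524). Its counts were nearly equal, 1556 and 1654, which gave 14.0 CPM in the control against 10.8 CPM in the LKO-labelled library. Unlike ATGL and its inhibitor, the coactivator was lower, 1.29-fold (interval 1.21 to 1.39), and short of the 1.5-fold mark. The log2 ratio of −0.37 turns to 0.05 with total-count scaling, so its direction rests on the scaling.

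Ratios between genes of 1 library do not depend on scaling and show this unequal pattern directly. Levels were divided by the length of the longest annotated transcript (GENCODE M21), 2.625 kb for Pnpla2, 3.157 kb for Abhd5 and 0.871 kb for G0s2. Per kilobase, the level of Pnpla2 was 8.46 times that of Abhd5 in the control against 21.7 times in the LKO-labelled library. Over the length of all annotated exons these were 13.9 and 35.5 times, with the same change between libraries. The level of Abhd5 relative to Pnpla2 was thereby 2.56-fold (interval 2.38 to 2.75) lower in the LKO-labelled library. G0s2 stood at 1.62 and 1.55 per Pnpla2, a change to 0.958 (interval 0.923 to 0.995) of the control value. The direction of this small difference between inhibitor and lipase was not stable: with the trend of ratios with transcript length and GC content removed, the log2 ratio was 1.09 for G0s2 and 0.87 for Pnpla2, and −0.29 for Abhd5. These are transcript levels, and no protein was measured.

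**Figure D2:**
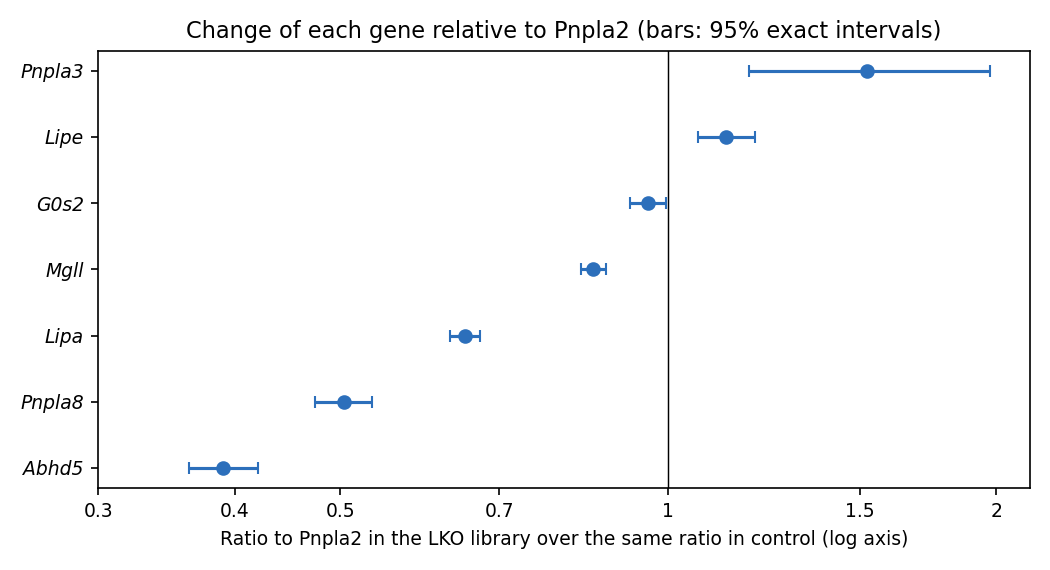
Each point is the ratio of a gene to Pnpla2 in the LKO-labelled library over the same ratio in the control library (log axis, bars are 95% exact intervals of counting error). Transcript length and library scaling cancel: Abhd5 stands at 0.391, Pnpla8 at 0.504 and Lipa at 0.651, while G0s2 and Lipe lie close to 1 and Pnpla3 stands at 1.52.

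Lipe encodes hormone-sensitive lipase, the main diglyceride lipase of fat cells, which protein kinase A activates by phosphorylation. The gene is on chromosome 7 (minus strand, 25379527 to 25398710). It had 1641 counts in the control against 5047 in the LKO-labelled library, or 14.8 and 33.1 CPM. The ratio was 2.24 (interval 2.11 to 2.37), above 97.3% of measured genes. It was next to that of Pnpla3 in size, but with the trend with length and GC content removed G0s2, at a log2 ratio of 1.09, stood above Lipe at 1.04. An annotated antisense RNA, 4732471J01Rik, shares 918 exon bases with Lipe. It had 228 and 646 counts, a ratio of 2.06 (interval 1.77 to 2.41), and since strand use in counting is not stated in those sources, reads of the 2 genes cannot be told apart.

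Fat cells hold far more Lipe, G0s2, Pnpla2 and Mgll than hepatocytes, so markers of adipocytes were read beside them. Lep, Retn and Plin1 had 0 counts in both libraries, where the limit that a count of 0 allows was 0.0271 and 0.0197 CPM. Adipoq had 0 and 4 counts. Of the 7 adipocyte markers, 2 were measured. Fabp4 had a ratio of 1.05 (interval 0.848 to 1.29), and Cfd, which other cells also express, was 1.80-fold higher. Slc2a4, also made by muscle, was under the filter at 38 and 173 counts, a ratio of 3.31 (interval 2.32 to 4.83). The 7 summed to 13.7 and 24.1 CPM, most of it Cfd, and their part in the results for these 4 genes was not tested. In bulk tissue, a change in the number of cells of a type and a change in RNA per cell cannot be told apart.

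Mgll encodes monoglyceride lipase, which finishes lipolysis and also degrades the endocannabinoid 2-arachidonoylglycerol. It lies on chromosome 6 (plus strand, 88724412 to 88828360). With 25504 and 59203 counts it had the most reads of the 8 genes in both libraries, 230.1 CPM in the control against 388 CPM in the LKO-labelled library. The ratio was 1.69 (interval 1.66 to 1.71), the smallest of the 5 higher genes. Its gain of 158 CPM was the largest before transcript length is taken into account. Per kilobase the gain of G0s2 was larger, from 61.0 to 116 CPM per kb, against 57.6 to 97.3 for Mgll. Relative to Pnpla2 it went from 1.53 to 1.31 per kilobase, a change to 0.853 (interval 0.831 to 0.876) of the control value. Relative to Lipe, which feeds it monoglycerides, it went from 14.5 to 10.9.

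Pnpla3 encodes adiponutrin, a close relative of ATGL on lipid droplets whose human counterpart is known for a coding variant tied to fatty liver. The mouse gene is known to respond to feeding and to SREBP-1c. Its locus is on chromosome 15 (plus strand, 84167837 to 84187236). It was scarce, with 79 and 327 counts, or 0.713 CPM in the control against 2.14 CPM in the LKO-labelled library. The ratio of 3.01 (interval 2.35 to 3.90) was the largest of the 8 genes and also the least precise. With under 1 CPM in the control library, it passed the filter only through the LKO-labelled library, so its place among the higher genes is partly set by the filter. Without it, at a mean CPM of at least 10, the count was 4 of the 7 other genes. Srebf1, whose product is that activator, stood at 161 and 128 CPM, a log2 ratio of −0.33 that becomes 0.09 with total-count scaling. Liver stellate cells also express PNPLA3 in humans, and the 7 stellate cell markers summed to 212 and 276 CPM, with 2 of 7 at least 1.5-fold higher, or 4 with total-count scaling; their part in the result was not tested.

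Lipa encodes lysosomal acid lipase. Its locus is on chromosome 19 (minus strand, 34492318 to 34527474). Its counts were 12523 and 22188, or 113 CPM in the control against 146 CPM in the LKO-labelled library. The acid lipase was higher, though less so than Pnpla2, Lipe and Mgll, at 1.29-fold (interval 1.26 to 1.32). Relative to Pnpla2 it was 1.54-fold (interval 1.49 to 1.58) lower in the LKO-labelled library. Macrophages are rich in Lipa, so their markers were read beside it. Of 7 Kupffer cell markers the 6 that were measured were each at least 1.5-fold lower, but 1 was with total-count scaling, and the 7 summed to 84.8 and 46.7 CPM. The list for recruited macrophages had 4 measured genes of 7, with 1 higher and 0 lower under either scaling and sums of 66.4 and 54.3 CPM. Their part in the value of Lipa was not tested.

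Pnpla8 encodes a calcium-independent phospholipase A2 of mitochondria and peroxisomes (iPLA2γ), of the same patatin-like family as ATGL. It lies on chromosome 12 (plus strand, 44221370 to 44322532). It had 2131 and 2920 counts, or 19.2 CPM in the control against 19.1 CPM in the LKO-labelled library. The 2 levels were not distinguishable by their counting intervals. The ratio was 0.996 (interval 0.942 to 1.05), and its log2 value of −0.01 becomes 0.41 with total-count scaling and 0.11 where the totals leave out the top 20 genes. The 3 patatin-like genes thus spanned ratios from 0.996 to 3.01.

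**Figure D3:**
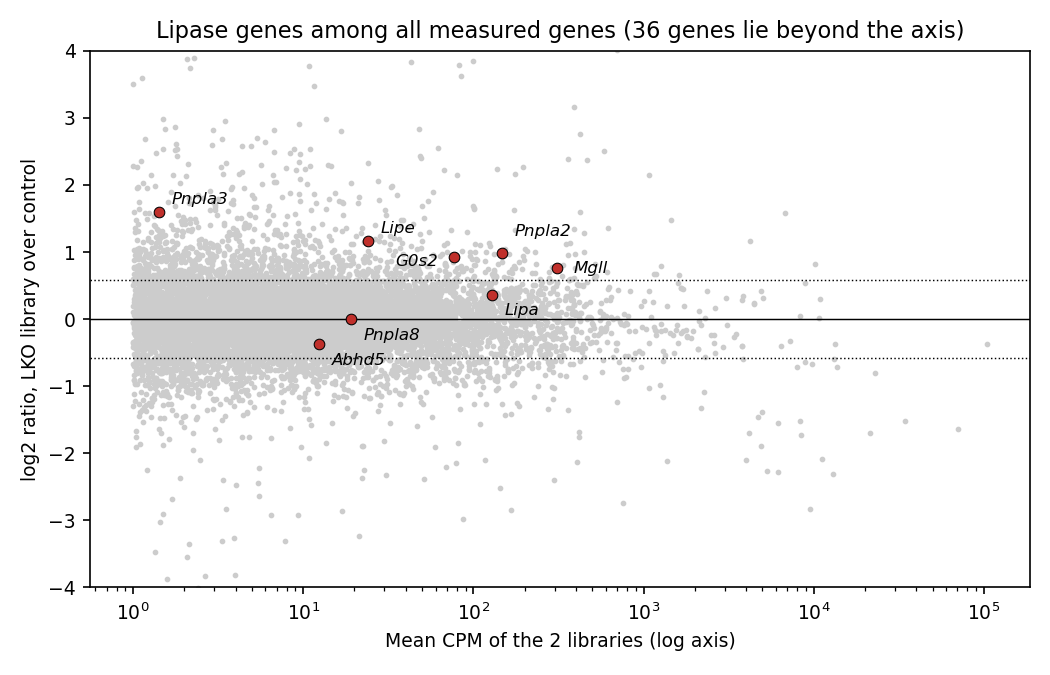
Mean CPM of the 2 libraries (log axis) against the log2 ratio, LKO-labelled library over control, for all measured genes with counts in both libraries (grey) and the 8 lipase genes (red); dotted lines mark 1.5-fold. Pnpla3, Lipe, Pnpla2, G0s2 and Mgll lie above the upper line, and Lipa, Pnpla8 and Abhd5 lie between the lines.

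Compared per kilobase, the 8 genes fell into abundant and scarce ones. In the control library the level was 61.0 CPM per kb for G0s2, 57.6 for Mgll, 37.6 for Pnpla2 and 29.0 for Lipa. Abhd5 followed at 4.45 CPM per kb, Lipe at 3.99, Pnpla8 at 1.42 and Pnpla3 at 0.543. In the LKO-labelled library the first 4 kept their order, at 116, 97.3, 74.4 and 37.4 CPM per kb. Among the scarce ones the order changed, with Lipe at 8.91 CPM per kb above Abhd5 at 3.44, and Pnpla3 at 1.63 above Pnpla8 at 1.42. Counting intervals of Pnpla3 (1.46 to 1.82) and Pnpla8 (1.37 to 1.47) overlapped in that library. Lengths bear on this order: over all annotated exons, Lipe already stood above Abhd5 in the control library, at 2.52 against 2.36 CPM per kb. With the longest transcript matched to a RefSeq mRNA, Lipa stood at 38.1 CPM per kb there, above Pnpla2. Summed over the 8 genes, the level was 196 CPM per kb in the control against 340.1 in the LKO-labelled library, 1.74 times as much. Of this sum, Abhd5 held 2.27% and 1.01%, Lipa 14.8% and 10.99%, and Pnpla2 19.2% and 21.9%.

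Of 9 measured genes for proteins that gate lipases at the droplet, 5 passed the 1.5-fold rule upward and 0 downward (median log2 ratio 0.59), and 7 and 0 with total-count scaling. This and the lists that follow stand beside 10.5% of all measured genes higher and 9.76% lower, or 34.6% and 2.53% with total-count scaling. Cidec, which enlarges droplets, and Plin4, a perilipin, had the largest ratios, 14.3 (interval 13.2 to 15.5) and 6.25 (interval 5.36 to 7.34). Plin5, which binds both ATGL and ABHD5, stood at 18.9 and 28.3 CPM, a ratio of 1.501 (interval 1.42 to 1.58) at the very edge of the rule. Plin2, the main droplet coat of hepatocytes, stood at 97.6 and 199.7 CPM, a ratio of 2.05. Its ratio was close to that of Pnpla2, and so was its CPM, which was not corrected for transcript length. Hilpda, a second inhibitor of ATGL, had 145 and 259 counts and a ratio of 1.30 (interval 1.06 to 1.60). Faf2 and Vcp, with the lowest ratios of the list, had log2 ratios of −0.10 and −0.11, which total-count scaling turns positive. Cideb, the most abundant of the list by the mean of both libraries, stood at 158 and 181 CPM.

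Other intracellular ester hydrolases went both ways. Of 18 measured, 6 passed upward and 2 downward (median log2 ratio 0.26); 11 and 0 did so with total-count scaling. The carboxylesterases Ces1e and Ces1g had the largest ratios, 16.2 and 8.91. Ces3a and Ces3b, also carboxylesterases of the liver, were 1.51-fold (interval 1.501 to 1.513) and 1.83-fold lower, at 4601 and 3052 CPM and at 990.3 and 540.1 CPM. Ces1 and Ces3 genes are close copies, so the split of reads between them is uncertain. Nceh1, a neutral cholesteryl ester hydrolase, was 3.08-fold (interval 2.82 to 3.37) higher. Aadac, a hydrolase of the endoplasmic reticulum, was 1.47-fold lower. Abhd6, a second monoglyceride hydrolase, had a ratio of 1.21 beside 1.69 for Mgll.

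Phospholipases related to Pnpla8 gave 1 higher and 1 lower of 7 measured (median log2 ratio −0.14), which for so few genes is close to the shares among all measured genes. With total-count scaling 1 was higher and 0 lower. Pla2g6, the other well known calcium-independent phospholipase A2, went from 69.7 to 150 CPM, a ratio of 2.15 (interval 2.09 to 2.21), while Pnpla8 was level. Pnpla6, a lysophospholipase of the patatin family, had a ratio of 0.972. Pla2g4a, the cytosolic calcium-dependent enzyme, was 1.77-fold (interval 1.40 to 2.26) lower, and the lysosomal Pla2g15 1.37-fold lower. With 1.44 CPM in the control against 0.813 CPM in the LKO-labelled library, Pla2g4a passed the filter only through the control library. At a mean CPM of at least 10, 1 of the list was higher and 0 lower. The same counts held where the interval had to lie wholly beyond 1.5-fold.

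Lipases that act outside the cell, with their regulators, showed 1 gene higher and 1 lower of 10 measured, close to the shares among all measured genes, and 4 and 0 with total-count scaling. Angptl4, an inhibitor of lipoprotein lipase, went from 26.8 to 75.9 CPM, a ratio of 2.84 (interval 2.72 to 2.95). Gpihbp1, which anchors lipoprotein lipase on endothelial cells, was 1.54-fold (interval 1.41 to 1.67) lower. The number of lower genes in the list was 0 where the totals leave out the top 20 genes and at a mean CPM of at least 10. It was also 0 with the interval wholly beyond 1.5-fold, and with the trend with length and GC content removed. The hepatic lipase gene Lipc stood at 44.2 and 41.3 CPM. Apoa5, which aids lipoprotein lipase, had a ratio of 1.33, and Apoc3, which restrains it, had a ratio of 0.776 that lies above 1 with total-count scaling. The median log2 ratio of the list was −0.07, beside 0.84 for the intracellular lipases and their regulators.

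Genes that carry hormone signals to the lipases gave 5 higher and 0 lower of 18 measured (median log2 ratio 0.11), and 7 and 0 with total-count scaling. Of the 18, 1 was under 1 CPM in the control and passed the filter through the other library. Pde4d, a phosphodiesterase that degrades cAMP, was 3.31-fold (interval 2.83 to 3.89) higher. Insr, the insulin receptor gene, was 1.65-fold higher. The kinase subunit genes Prkaca and Prkacb, whose product phosphorylates hormone-sensitive lipase, had ratios of 1.10 and 1.06. Gcgr, the glucagon receptor gene, had a ratio of 1.21, Gnas 1.12 and Pde3b, the insulin-regulated phosphodiesterase gene, 1.04. Pde4b and Prkar2a had the lowest ratios, 0.735 and 0.788, of which the second lies above 1 with total-count scaling.

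Of 15 measured transcription factors and cofactors known to act on lipase genes, 4 passed upward and 0 downward (median log2 ratio 0.19), and 10 and 0 with total-count scaling. Pparg, an activator of Pnpla2 in fat cells, stood at 20.3 and 56.7 CPM, a ratio of 2.79 (interval 2.66 to 2.92). Egr1, an immediate early factor that represses Pnpla2, was 4.07-fold (interval 3.78 to 4.39) higher. Foxo1, which activates Pnpla2 in fasting and represses G0s2 in liver, had a ratio of 1.56 (interval 1.48 to 1.65), and Ppara 1.76. Rxra, the partner of the PPARs, was the most abundant, at 310.1 and 392.2 CPM. Creb1 and Nr1h3 had the lowest ratios, 0.727 and 0.779, the second above 1 with total-count scaling. Tfeb, an activator of Lipa, had a ratio of 1.003 (interval 0.937 to 1.07).

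Genes of the lysosomal route around Lipa gave 2 higher and 0 lower of 17 measured (median log2 ratio −0.07), a share of higher genes near that of all measured genes. The count was 5 with total-count scaling and 1 where the interval had to lie wholly beyond 1.5-fold. Npc1, which exports the cholesterol that acid lipase frees, was 1.60-fold (interval 1.54 to 1.65) higher, while its partner Npc2 was 1.30-fold lower. Atg14, which starts autophagosomes, was 1.55-fold (interval 1.39 to 1.73) higher. The protease gene Ctsl was 1.42-fold lower, and Rab7, the most abundant, had a ratio of 0.911. With total-count scaling Npc2 and Rab7 turn positive on the log2 scale, and Ctsl stays at −0.08.

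Genes that handle the products of lipolysis gave 2 higher and 0 lower of 14 measured (median log2 ratio 0.35). The number higher was 9 with total-count scaling and 5 where the totals leave out the top 20 genes. Cpt1a, which admits fatty acids to mitochondria, and Acsl1, an acyl-CoA synthetase, had ratios of 2.07 and 1.60. The glycerol channel Aqp9, glycerol kinase (Gyk) and Gpd1 had ratios of 1.31, 1.47 and 1.497, the last just under the rule. Fabp1 and Acsl3 had the lowest ratios, 0.740 and 0.747. Genes of triglyceride synthesis gave 4 higher and 0 lower of 7 measured (median log2 ratio 1.01), with Mogat1 in both the count and the median. At a mean CPM of at least 10, where Mogat1 drops out, 3 were higher and 0 lower. Without Mogat1 the median falls between the log2 ratios of Dgat1 and Gpam, 0.01 and 1.01. Mogat1, which makes diglyceride from monoglyceride and passed the filter only through the LKO-labelled library, and Lpin1 had the largest ratios, 14.8 and 5.17. Dgat2, which makes the final triglyceride, had a ratio of 0.970 and Agpat2 one of 0.728. Gpam, the entry enzyme of synthesis, had a ratio of 2.02. The synthesis count was also 4 when totals were used for scaling.

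**Figure D4:**
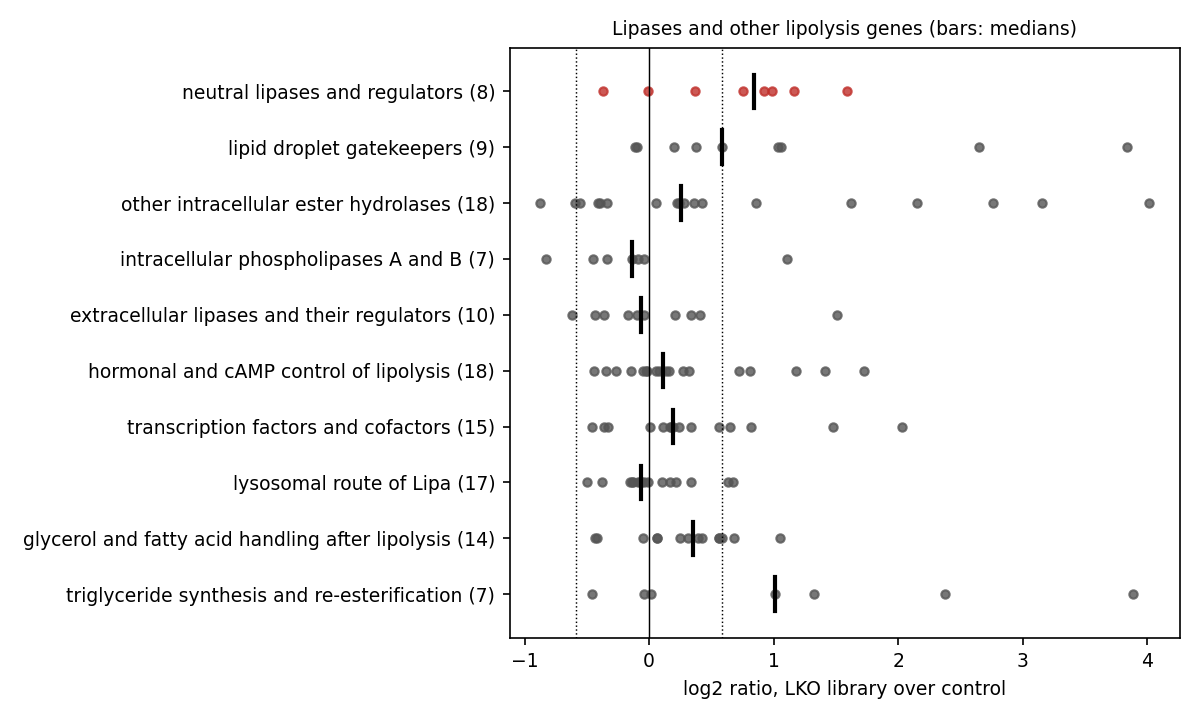
The log2 ratio, LKO-labelled library over control, of each measured gene of the lipase group (red) and of 9 lists around lipolysis (grey), with the number measured in brackets, medians as black bars and 1.5-fold as dotted lines. The lipase median is 0.84, beside 0.59 for droplet gatekeepers, 1.01 for triglyceride synthesis and −0.07 for the extracellular lipases and for the lysosomal route. The lipase and synthesis medians include Pnpla3 and Mogat1, which passed the filter only through the LKO-labelled library.

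The direction of 6 of the 8 genes was the same under 5 library scalings. Pnpla3 ranged from 1.58 to 2.01 on the log2 scale over these scalings, Lipe from 1.15 to 1.58, Pnpla2 from 0.97 to 1.40, G0s2 from 0.91 to 1.34, Mgll from 0.74 to 1.17 and Lipa from 0.35 to 0.78. Abhd5 and Pnpla8 changed sign with the scaling. The order of the 8 ratios cannot change, since a scaling shifts all of them alike.

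**Figure D5:**
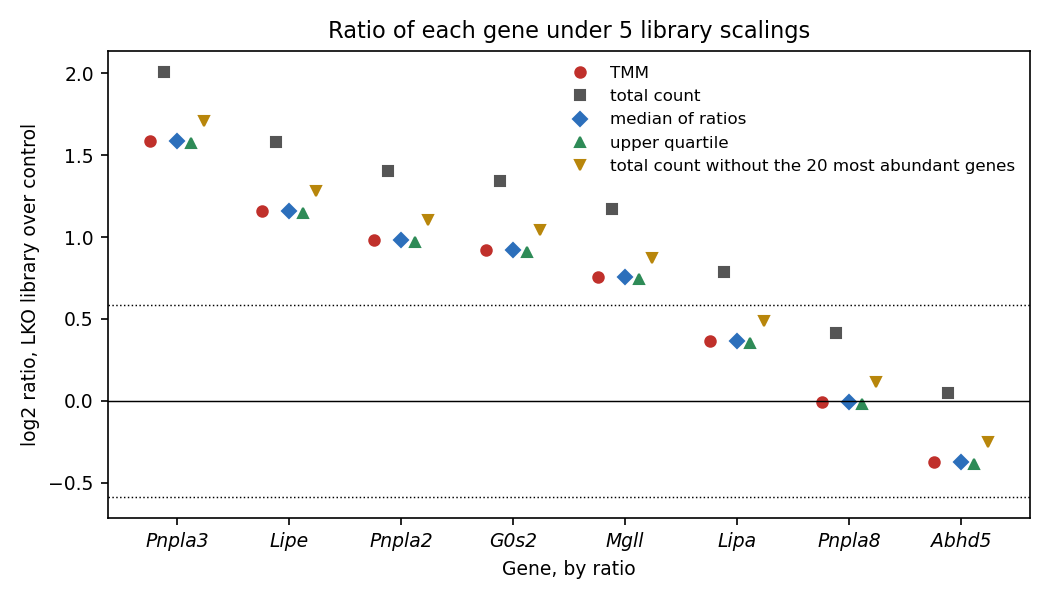
The log2 ratio, LKO-labelled library over control, of the 8 genes under 5 scalings of the libraries; dotted lines mark 1.5-fold. Total count (squares) gives the highest values throughout, Abhd5 and Pnpla8 lie on both sides of 0 over the scalings, and Lipa passes 1.5-fold only with total count.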

How the data were processed

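Liver RNA of 2 libraries, 1 per genotype, was compared. The values are whole-number counts of reads for each gene symbol, which the authors deposited unnormalized in a table for each library. TopHat, edgeR and build mm10 stand in the submitters' processing notes without versions or roles; the sources used here do not give the counter, the annotation, or how strand and multiply aligned reads were handled. Per the labels' protocols, library input to the LEXOGEN mRNA-Seq kit was 500 ng of total RNA. Reads carry no molecular identifiers as far as the labels say, so the intervals, and the floor of 3 counts, describe counting error alone.

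TMM factors came from edgeR 4.0.16 in R 4.3.3 and were 0.865 and 1.16. Ratios of CPM have 95% Clopper-Pearson intervals conditional on the sum of both counts (scipy 1.17.1), levels have exact Poisson intervals, and changes of a ratio between 2 genes have exact conditional intervals. No test was computed. Positions, transcript lengths and overlaps are from GENCODE M21, on GRCm38, and promoters from RefSeq.

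The 8 genes, lists and markers were chosen with earlier results of these data known. Named from each list were its 2 highest, 2 lowest and most abundant measured genes. Some genes this rule names are not reported here. Plin2, Plin5, Hilpda, Nceh1, Aadac, Abhd6, Lipc, Insr, Prkaca, Prkacb, Gcgr, Pde3b, Foxo1, Ppara, Srebf1, Tfeb, Aqp9, Gyk, Gpd1, Gpam and the single markers Fabp4, Cfd and Slc2a4 fall outside this rule and were chosen after their values were seen. Other markers read were those of endothelial cells (summed CPM 134 and 147), cholangiocytes (56.5 and 44.4), neutrophils (0.0361 and 0.321) and skeletal muscle (0 and 0.0525). Alternatives were other scalings (DESeq2 1.42.0 for the median of ratios), filters, added counts, folds and lengths. Total-count calls of the markers were added after the data were seen.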

Additional observations from a re-analysis of the deposited data

How the results depend on the processing

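The count of 5 genes higher and 0 lower was the same with the median of ratios, the upper quartile, totals that leave out the top 20 genes, no filter, added counts of 0.5 and 5, an interval wholly beyond 1.5-fold, and correction for length and GC content. With total count 6 were higher, and at a mean CPM of at least 10 there were 4. A 2-fold threshold gave 2 and a 3-fold threshold 1, as fewer genes pass a higher fold by construction; 0 were lower in each case. The median log2 ratio of 0.84 was 1.26 with total count, 0.96 without the top 20 genes, 0.75 at a mean CPM of at least 10, where Pnpla3 drops out, and 0.75 after the correction for length and GC content. That correction moved Pnpla2 to 0.87, G0s2 to 1.09 and Mgll to 0.63 on the log2 scale; the cause was not tested. The length used changes levels between genes but not their change between libraries; over all annotated exons, Abhd5 per Pnpla2 was 0.0720 and 0.0281. The RefSeq-matched length was added after the data were seen. Pnpla8 keeps its 13.507 kb transcript there, so its level per kb rests on that length. No paired analysis was possible because each genotype has 1 library.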

Other observations

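Some RNAs annotated within these loci were read outside the comparisons. Mir6392, inside Pnpla3 on the same strand, had 3 and 24 counts, and Gm2027, a processed pseudogene inside Pnpla8, had 3 and 5. A730085K08Rik, an antisense RNA that shares 950 exon bases with Abhd5, had 0 counts in both libraries. None of the 8 genes had the same pair of counts as another listed gene.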
